A study of Mus musculus with 2 samples.

Results

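The genes described here are the Wnt ligands, their receptors, their secreted and membrane modulators and the transducers and targets of the pathway, 67 genes of the 21628 entries in the deposited table, chosen by symbol as members of the pathway, with no expression value in the rule. RNAseq had profiled 2 populations of cells sorted by the brightness of a Sox2GFP reporter from lingual epithelium of newborn mice (P0), GFP_High and GFP_Low, called GFP-high and GFP-low cells below. All cells carried the same reporter, in which GFP follows the activity of *Sox2*, and about 100000 cells were collected per population. By the study's account, some cells of the lingual mesenchyme appear to carry low levels of the reporter and may have been sorted with the GFP-low cells. With 1 library per population, made from cells of many pups sorted together, no difference below has a replicate check, no p-value is given, and a larger amount of RNA per cell cannot be told apart from a larger share of cells that express the gene.

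Wnt proteins are secreted glycoproteins that are lipidated by Porcn and carried to the cell surface by Wls. In the beta-catenin branch they bring a Frizzled receptor and Lrp5 or Lrp6 together, the destruction complex of Axin and Apc stops degrading beta-catenin (*Ctnnb1*), and beta-catenin then acts with TCF/LEF factors on target genes, several of which feed back on the pathway. In the embryonic tongue, Wnt/beta-catenin signaling promotes the formation of taste placodes and fungiform papillae, and in the adult tongue it takes part in taste cell renewal.

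Values are FPKM as deposited, read abundance corrected for transcript length and for sequencing depth, so that levels may be set side by side between genes. A gene was counted as enriched in a population at 5 FPKM or more there and a ratio of at least 1.5 between the populations. The libraries' depth could be estimated only roughly, from the steps between low FPKM. The best fit was 27500000 reads in GFP-high and 35250000 reads in GFP-low cells, fewer than the number sequenced that the labels give. By that estimate, a single read over 2 kb of exon sequence would equal about 0.0202 FPKM in the GFP-high library and 0.0158 FPKM in the GFP-low library. *Sox2* itself was at 112 FPKM in GFP-high and 59.0 FPKM in GFP-low cells. All 7 epithelial markers examined (among them *Krt5*, *Krt14* and *Epcam*) exceeded 5 FPKM in both populations. All 6 markers of taste bud cells and their precursors, *Sox2* among them, were enriched in GFP-high cells. The study had named all 6 as enriched there from the same libraries, and the cells were sorted by the *Sox2* reporter, so these 6 are no independent check. The library of GFP-low cells also held more RNA of fibroblast and Schwann lineage markers. The summed level of 11 fibroblast markers was 498 FPKM in GFP-high and 2305 FPKM in GFP-low cells, with 9 of 11 higher in the latter. That of 6 Schwann lineage markers was 64.9 and 184 FPKM, with 6 of 6 higher in GFP-low cells, though the study had named *Foxd3* and *Sox10* of these 6 from the same libraries. *Erbb3* alone, with little difference, made 60.25 FPKM of the Schwann lineage sum in GFP-high and 66.89 FPKM in GFP-low cells. *Col3a1* (193 and 966 FPKM), *Dcn* (143 and 504 FPKM) and *Postn* (41.6 and 436 FPKM) made most of the fibroblast sum. *Fbn1* (24.3 and 34.8 FPKM) and *Pdgfra* (1.42 and 1.46 FPKM) differed by less than 1.5-fold. *Thy1* (19.6 and 16.2 FPKM) and *Twist2* (2.27 and 0.5 FPKM) were higher in GFP-high cells. As single examples, *Col1a1* was at 34.4 and 172 FPKM and *Sox10* at 0.51 and 42.7 FPKM, and none in either list was at 0 in a population. The summed levels of markers of endothelial cells (34.8 and 25.0 FPKM), macrophages and leukocytes (16.5 and 18.2 FPKM), melanocytes (1.36 and 2.67 FPKM, with *Tyr* at 0 in both) and skeletal muscle (11.5 and 13.5 FPKM) were low in GFP-high and GFP-low cells. Of 7 endothelial markers, 6 were higher in GFP-high cells, with *Pecam1* (5.31 and 2.38 FPKM) enriched there. *Egfl7* (18.5 and 15.9 FPKM) was the largest part of the endothelial sum. The part of these cells in the differences described below was not tested.

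Of the 67 Wnt pathway genes, 43 (64.2%) reached 5 FPKM in at least 1 population, against 49.8% of all 21590 genes with a number in both. Among the 43, 37 reached 5 FPKM in both populations, 4 in GFP-high cells alone and 2 in GFP-low cells alone. Enrichment in GFP-high cells was found for 9 of the 43 (20.9%), namely *Wnt16*, *Lgr5*, *Wif1*, *Ror1*, *Notum*, *Wnt10b*, *Nkd1*, *Fzd10* and *Wnt7b*. Over all genes with 5 FPKM in at least 1 population the share was 9.48%, and over all genes with a number in both it was 4.72%. Enrichment in GFP-low cells was found for 7 of the 43 (16.3%), namely *Nkd2*, *Fzd1*, *Tcf7*, *Wnt3*, *Lef1*, *Axin2* and *Fzd7*, where the share of all genes was 8.9% with the 5 FPKM minimum and 4.44% without it. The other 27 differed by less than 1.5-fold. Where 5 FPKM was required in each population, 5 genes were enriched on either side, and *Wnt16*, *Lgr5*, *Wnt10b*, *Nkd1*, *Nkd2* and *Tcf7*, all under 5 FPKM in the other population, were not. The median log2 ratio of GFP-high over GFP-low cells was −0.05 over the 43 genes and −0.04 over all genes with the same minimum, so that the center of the group lay with that of the transcriptome while its tails held more genes. The TPM scale (FPKM rescaled so that both libraries have the same total) lowered every log2 ratio by 0.10, which left the same 9 and 7 genes enriched but turned the calls over all genes from 1020 in GFP-high against 958 in GFP-low cells to 807 and 1219.

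**Figure D1:**
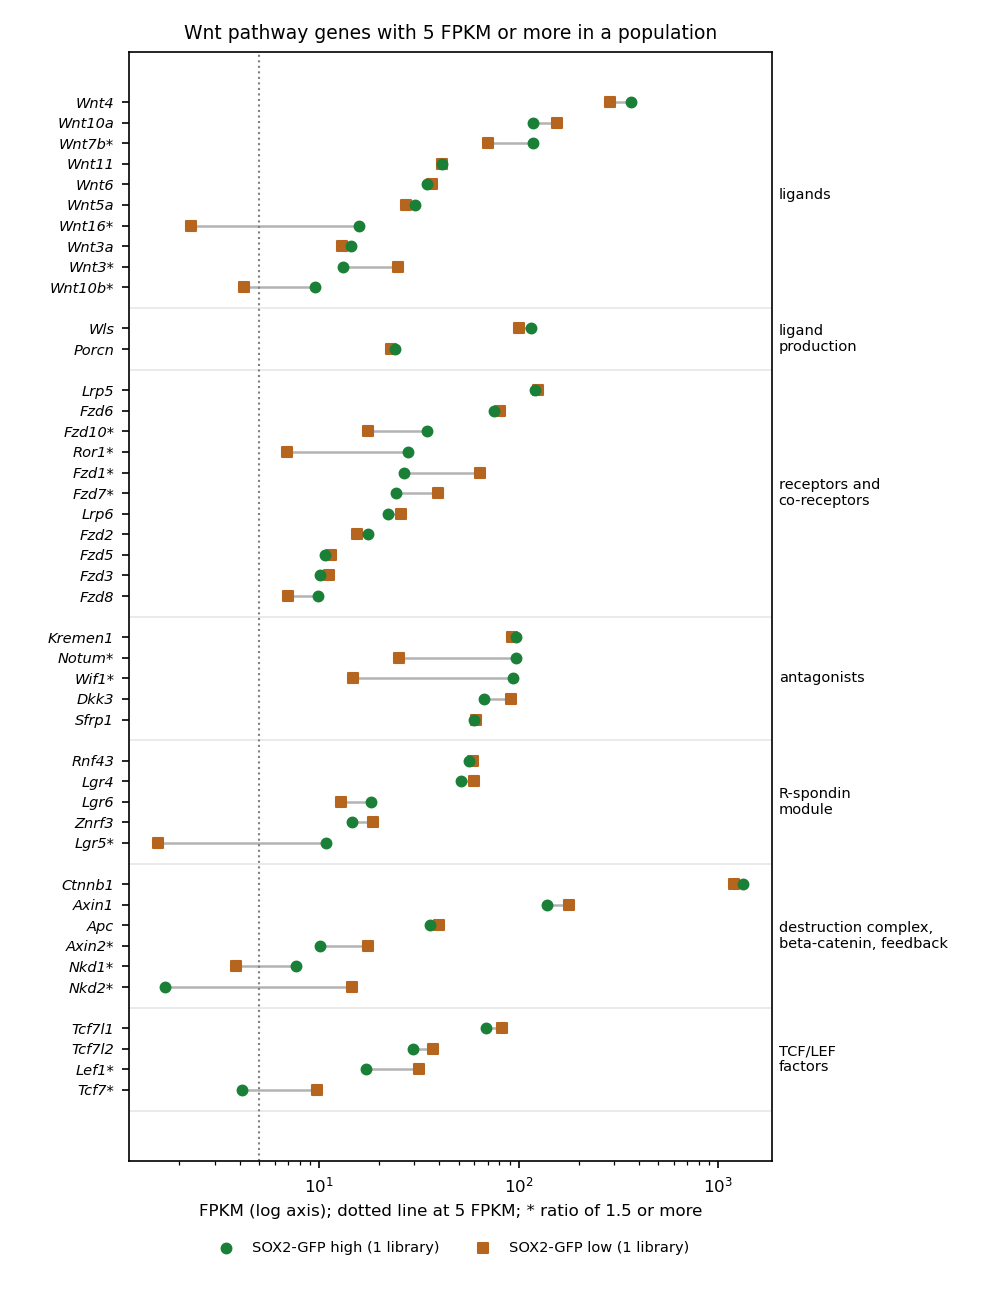
FPKM (log axis) of the 43 Wnt pathway genes with 5 FPKM or more in at least 1 population, grouped by role, with a circle for the GFP-high and a square for the GFP-low library. The 16 genes marked with an asterisk are enriched in a population, and the longest lines belong to *Nkd2*, *Wnt16*, *Lgr5* and *Wif1*.

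Among the ligands, 10 of 19 reached 5 FPKM, and 1 gene, *Wnt4*, supplied more Wnt transcript than any other in both populations. *Wnt4*, known for its roles in kidney and gonad formation, was at 366 FPKM in GFP-high and 287 FPKM in GFP-low cells, which made 47.6% and 42.9% of the summed ligand FPKM. *Wnt10a*, which is required for normal tongue papillae, teeth and hair, followed with 118 FPKM in GFP-high and 156 FPKM in GFP-low cells, 1.33-fold higher in the latter. *Wnt7b* was at 118 FPKM in GFP-high and 70.5 FPKM in GFP-low cells, a ratio of 1.67. In GFP-high cells it stood level with *Wnt10a*. *Wnt11*, a ligand best known for beta-catenin-independent signaling, was at 41.3 and 41.4 FPKM, *Wnt6* at 34.8 and 36.7 FPKM, and *Wnt5a*, another ligand of that branch, at 30.2 and 27.2 FPKM in GFP-high and GFP-low cells. *Wnt3a*, a potent activator of beta-catenin signaling, was at 14.4 FPKM in GFP-high and 12.96 FPKM in GFP-low cells. These 4 ligands differed little, and the direction of *Wnt11* depended on how the libraries were scaled.

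The ligands with the largest ratios were expressed at lower levels. *Wnt16* (ENSMUSG00000029671, chromosome 6 of mm10, as for all positions here, 22288227–22298522) was at 15.9 FPKM in GFP-high and 2.29 FPKM in GFP-low cells, a ratio of 6.93 and rank 37 among the 10758 genes that could be ranked by the ratio. *Wnt10b* (chromosome 15, 98770712–98778150), which is expressed in taste placodes, was at 9.51 FPKM in GFP-high and 4.21 FPKM in GFP-low cells, a ratio of 2.26 and rank 328. *Wnt3* (chromosome 11, 103774150–103817957) went the other way, with 13.2 FPKM in GFP-high and 24.8 FPKM in GFP-low cells, 1.88-fold higher in the latter. The summed FPKM of all 19 ligands was 769 in GFP-high against 669 in GFP-low cells, a ratio of 1.15, and 1.07 on the TPM scale. Total ligand transcript was thus close between the populations while single ligands of the 10 at 5 FPKM or more differed by up to 6.93-fold.

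Some Wnt genes lie side by side in the genome, and 4 pairs had no other protein-coding gene between them. *Wnt6* and *Wnt10a*, 6.19 kb apart on chromosome 1 and on the same strand, were both well expressed in both populations. *Wnt10b* and *Wnt1*, 11.7 kb apart on chromosome 15, differed widely, since *Wnt1* was at 0.07 FPKM in GFP-high and 0.14 FPKM in GFP-low cells. *Wnt9b*, 24.3 kb from *Wnt3* on chromosome 11, was at 0.1 and 0.27 FPKM. *Wnt9a*, 16.2 kb from *Wnt3a*, was at 4.14 FPKM in GFP-high and 2.81 FPKM in GFP-low cells.

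Genes for the making and release of Wnt proteins were expressed in both populations at similar levels. The cargo receptor *Wls* was at 116 FPKM in GFP-high and 99.9 FPKM in GFP-low cells. The acyltransferase *Porcn* was at 24.1 FPKM in GFP-high and 22.8 FPKM in GFP-low cells, a difference whose direction turned on the TPM scale.

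Of the 10 Frizzled receptors, 8 reached 5 FPKM, and GFP-high and GFP-low cells held different mixtures of them. *Fzd6*, known for hair patterning and planar cell polarity, was the most abundant in both populations, at 75.1 FPKM in GFP-high and 80.9 FPKM in GFP-low cells. *Fzd1* (chromosome 5, 4753839–4758035) was at 26.5 FPKM in GFP-high and 63.9 FPKM in GFP-low cells, 2.41-fold higher in the latter. *Fzd7* (chromosome 1, 59482424–59486955), a close relative of *Fzd1*, was at 24.3 FPKM in GFP-high and 39.4 FPKM in GFP-low cells, 1.62-fold higher in the latter and the enriched gene nearest to the 1.5-fold limit. *Fzd10* (chromosome 5, 128600844–128604093) was at 34.7 FPKM in GFP-high and 17.6 FPKM in GFP-low cells, a ratio of 1.97. As shares of all Frizzled FPKM, *Fzd10* made 16.4% in GFP-high against 7.05% in GFP-low cells, and *Fzd1* made 12.5% and 25.5%. *Fzd2*, the third member of the *Fzd1* and *Fzd7* subfamily, was at 17.7 FPKM in GFP-high and 15.5 FPKM in GFP-low cells and did not share their direction. *Fzd3* was at 10.1 and 11.2 FPKM, *Fzd5* at 10.7 and 11.5 FPKM, and *Fzd8* at 9.83 and 7 FPKM in GFP-high and GFP-low cells.

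The co-receptors of the beta-catenin branch were even between the populations. *Lrp5* was at 121 FPKM in GFP-high and 125 FPKM in GFP-low cells, and *Lrp6* at 22.2 and 25.9 FPKM. The receptor tyrosine kinases that bind Wnt5a differed more. *Ror1* (chromosome 4, 100095791–100444765) was at 28.0 FPKM in GFP-high and 6.93 FPKM in GFP-low cells, a ratio of 4.04 and rank 99, while its paralog *Ror2* stayed under 5 FPKM, at 2.66 and 1.83 FPKM.

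Promoter windows from RefSeq (GRCm38.p6, 250 bases before to 50 after each start) were found for 44 of the 67 genes, 54 windows in all, and were searched on both strands for the cores CTTTGA and CTTTGT. TCF/LEF factors bind both, and SOX factors, which carry the same kind of DNA-binding box, bind the second. CTTTGA was found in 7 of the 54 windows (12.96%) and in 16.0% of all 32851 windows, and CTTTGT in 10 of 54 (18.5%) and 18.7% of all. Of the 11 windows of the 7 genes enriched in GFP-low cells, 4 held CTTTGT (*Fzd1*, *Fzd7*, *Lef1* and *Wnt3*) and 2 held CTTTGA (*Fzd1* and *Lef1*). Of 6 windows of 6 genes enriched in GFP-high cells, 0 held CTTTGT and 1, of *Ror1*, held CTTTGA, and *Lgr5*, *Notum* and *Wnt7b* had no window to search. The forkhead core TGTTTAC was found in 1 member window, of *Tcf7*, and in 3.65% of all windows, and GGGTGGTC, part of the GLI motif, in 0 member windows and in 0.807% of all. The 250 bases before the start are shown for the enriched genes with a core there, each written 5′ to 3′ on the strand of the gene, with the cores on either strand in capitals. RefSeq starts need not be those of the gene positions given here, and that of *Lef1* lies inside the annotated gene.
Fzd1, chr5:4758217-4758466, minus strand: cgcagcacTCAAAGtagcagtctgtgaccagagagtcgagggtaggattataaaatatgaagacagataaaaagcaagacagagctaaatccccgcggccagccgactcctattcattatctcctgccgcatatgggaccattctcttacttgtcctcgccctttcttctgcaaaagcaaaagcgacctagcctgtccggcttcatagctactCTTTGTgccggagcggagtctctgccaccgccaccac
Fzd7, chr1:59481897-59482146, plus strand: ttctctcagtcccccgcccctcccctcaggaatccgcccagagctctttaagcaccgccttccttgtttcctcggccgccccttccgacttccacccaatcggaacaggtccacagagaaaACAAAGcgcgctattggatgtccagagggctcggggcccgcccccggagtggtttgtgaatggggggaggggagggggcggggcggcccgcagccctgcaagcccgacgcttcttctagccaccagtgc
Lef1, chr3:131156044-131156293, plus strand: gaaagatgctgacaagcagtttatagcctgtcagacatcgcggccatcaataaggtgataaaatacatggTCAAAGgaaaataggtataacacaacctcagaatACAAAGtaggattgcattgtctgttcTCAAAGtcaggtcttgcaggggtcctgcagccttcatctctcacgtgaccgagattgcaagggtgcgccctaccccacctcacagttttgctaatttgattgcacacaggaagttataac
Ror1, chr4:100095541-100095790, plus strand: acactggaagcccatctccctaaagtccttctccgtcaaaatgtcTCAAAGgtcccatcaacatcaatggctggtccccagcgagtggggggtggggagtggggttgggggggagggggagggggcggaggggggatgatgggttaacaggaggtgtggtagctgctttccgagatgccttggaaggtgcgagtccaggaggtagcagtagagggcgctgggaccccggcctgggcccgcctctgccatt
The stretch of *Lef1* holds 3 cores, that of *Fzd1* 2, and those of *Fzd7* and *Ror1* 1 each. A match describes the letters of the window and is not a binding site.

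**Figure D2:**
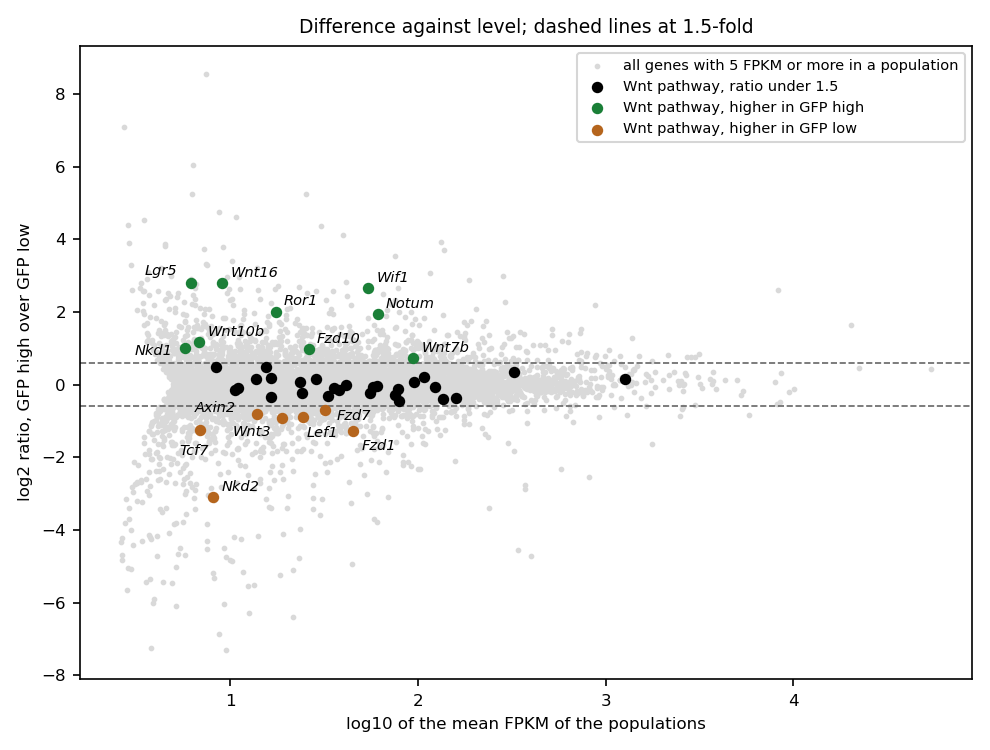
log2 ratio of GFP-high over GFP-low FPKM (vertical axis) against log10 of the mean FPKM of the populations (horizontal axis) for genes with 5 FPKM or more in at least 1 population, with Wnt pathway genes drawn larger and the 16 enriched ones named. *Lgr5*, *Wnt16*, *Wif1*, *Ror1* and *Notum* lie highest and *Nkd2* lowest, and the Wnt pathway genes with the highest mean FPKM lie between the dashed lines at 1.5-fold.

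The secreted inhibitors *Wif1* and *Notum* joined a large ratio to a high level. *Wif1* (ENSMUSG00000020218, chromosome 10, 121033960–121100650), which binds Wnt proteins outside the cell, was at 93.8 FPKM in GFP-high and 14.8 FPKM in GFP-low cells, a ratio of 6.34 and rank 42. *Notum* (ENSMUSG00000042988, chromosome 11, 120653788–120661175), an enzyme that removes the lipid from Wnt proteins and a target gene of the pathway in several tissues, was at 96.8 FPKM in GFP-high and 25.3 FPKM in GFP-low cells, a ratio of 3.83 and rank 108. Its exons share 29.4% of their bases with those of an antisense gene, *Notumos*. The kit was stranded by the labels, but whether the counting used strand is not given in the sources used here.

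The other antagonists did not follow *Wif1* and *Notum*. *Dkk3*, a divergent member of the Dickkopf family, was at 67.0 FPKM in GFP-high and 91.6 FPKM in GFP-low cells, *Sfrp1*, a secreted protein with a Frizzled-like domain, at 59.9 and 61.3 FPKM, and *Kremen1*, a receptor of Dickkopf proteins, at 97.5 and 92.4 FPKM. All 3 differed by less than 1.5-fold, and the direction of *Sfrp1* and of *Kremen1* depended on the scaling. The summed FPKM of the 11 secreted antagonists was 320 in GFP-high against 201 in GFP-low cells, a ratio of 1.59, and 1.49 on the TPM scale. *Wif1* and *Notum* made 29.3% and 30.2% of that sum in GFP-high cells but 7.35% and 12.6% of it in GFP-low cells, where *Dkk3* made 45.5%. The Dickkopf genes that block Lrp5 and Lrp6 were close to undetected, with *Dkk1* at 0.01 FPKM in GFP-high cells and listed at 0 in GFP-low cells, *Dkk4* listed at 0 in both, and *Dkk2* at 0.54 and 0.65 FPKM.

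**Figure D3:**
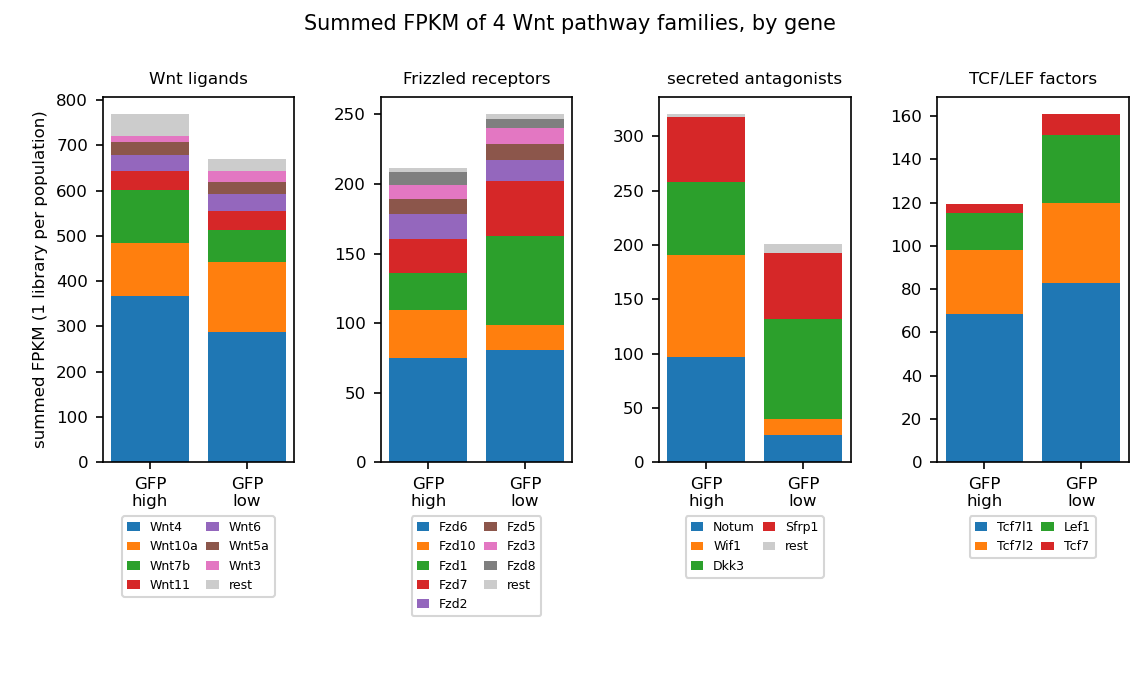
Summed FPKM of 4 gene families in the GFP-high and GFP-low libraries (bars from 0, 1 library each), divided by gene, with genes under 3% of the sum in both populations pooled as rest. *Wnt4* is the largest ligand share in both, the *Fzd10* and *Fzd1* shares differ between the bars, and *Notum* and *Wif1* fill more of the antagonist bar in GFP-high cells.

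R-spondins raise Wnt signaling by binding Lgr receptors and removing the ligases Znrf3 and Rnf43, which otherwise clear Frizzled receptors from the surface. *Lgr4* and *Lgr6* reached 5 FPKM in both sorted populations and *Lgr5* in GFP-high cells alone, while no R-spondin gene reached it in either. *Lgr4* was the most abundant receptor, at 51.1 FPKM in GFP-high and 59.6 FPKM in GFP-low cells. *Lgr6*, a marker of epithelial and taste progenitors, was at 18.2 FPKM in GFP-high and 12.95 FPKM in GFP-low cells, a ratio of 1.41 that did not reach the limit. *Lgr5*, a stem cell marker and target gene, was at 10.8 FPKM in GFP-high and 1.56 FPKM in GFP-low cells, the ratio of 6.92 standing at rank 38, next to that of *Wnt16*. *Lgr5* made 13.5% of the summed Lgr FPKM in GFP-high against 2.11% in GFP-low cells. *Rnf43* was at 56.2 and 58.9 FPKM and *Znrf3* at 14.6 and 18.6 FPKM in GFP-high and GFP-low cells, and neither reached 1.5-fold. *Rspo1* was at 0.34 FPKM in GFP-high and 1.12 FPKM in GFP-low cells, and *Rspo2*, *Rspo3* and *Rspo4* were at 0.04 FPKM or less in both.

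The core of the cytoplasmic machinery was even, while feedback genes stood on opposite sides. *Ctnnb1* was the most abundant gene of the group, at 1329 FPKM in GFP-high and 1202 FPKM in GFP-low cells, and 14.6% of its exon bases are shared with *Ulk4* on the other strand. The scaffold genes *Axin1* (139 and 179 FPKM) and *Apc* (35.9 and 39.7 FPKM) were also within 1.5-fold. *Axin2* (chromosome 11, 108920349–108950783), a target gene that restrains the pathway and is widely used as its readout, was at 10.2 FPKM in GFP-high and 17.7 FPKM in GFP-low cells, 1.74-fold higher in the latter. *Nkd1* and *Nkd2* bind Dishevelled and dampen the pathway. *Nkd1* (chromosome 8, 88521354–88594884) was at 7.68 FPKM in GFP-high and 3.84 FPKM in GFP-low cells, a ratio of 2, and *Nkd2* (chromosome 13, 73818534–73847631) was at 1.70 FPKM in GFP-high and 14.6 FPKM in GFP-low cells, 8.58-fold higher in the latter and rank 86 in that direction. The paralogs thus stood on opposite sides, and *Nkd2* had the largest ratio of the 16 enriched genes in the values as deposited. With 1 added to each FPKM, the ratio of *Nkd2* fell below that of *Wif1*.

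All 4 TCF/LEF factors were lower in GFP-high cells, as were 5962 of the 10760 genes with 5 FPKM in at least 1 population. The 4 factors kept that direction under both other scalings, and 2 of them passed 1.5-fold. *Tcf7l1*, mainly a repressor of target genes in stem cells, was the most abundant at 68.5 FPKM in GFP-high and 82.6 FPKM in GFP-low cells. *Tcf7l2* was at 29.6 and 37.03 FPKM. *Lef1* (chromosome 3, 131110471–131224356), an activator of target genes and itself one, with 13.7% of its exon bases shared with an antisense gene, was at 17.2 FPKM in GFP-high and 31.5 FPKM in GFP-low cells, 1.84-fold higher in the latter. *Tcf7* (chromosome 11, 52252371–52283014) was at 4.12 FPKM in GFP-high and 9.72 FPKM in GFP-low cells, 2.36-fold higher in the latter. The summed FPKM of the 4 factors was 119 in GFP-high against 161 in GFP-low cells, a ratio of 0.742. *Tcf7l1* made 57.4% of the sum in GFP-high against 51.4% in GFP-low cells, and *Lef1* 14.4% and 19.6%. The fibroblast and Schwann lineage markers given above were, in sum, also higher in GFP-low cells.

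Of the 24 genes under 5 FPKM in both populations, 8 reached 1 FPKM in at least 1 of them and 16 did not. The 8 were *Wnt5b* (3.32 FPKM in GFP-high and 2.82 FPKM in GFP-low cells), *Fzd4* (2.57 and 3.03), *Kremen2* (1.80 and 0.76), *Sfrp2* (1.77 and 2.69), *Sfrp5* (0.15 and 3.40), and *Wnt9a*, *Ror2* and *Rspo1*, given above. *Sfrp5*, a secreted antagonist, had the largest gap of the 8. The 16 others ranged from 0 to 0.54 FPKM in GFP-high and from 0 to 0.84 FPKM in GFP-low cells. Among them, picked for naming after their values were seen, *Wnt7a* was at 0.51 FPKM in GFP-high and 0.01 FPKM in GFP-low cells, *Frzb* at 0.03 and 0.84 FPKM, *Sfrp4* at 0.43 and 0.72 FPKM, *Fzd9* at 0.06 and 0.25 FPKM, and *Wnt2*, *Wnt2b* and *Wnt8b* at 0.11 FPKM or less in both. *Wnt8a* and *Dkk4* were listed at 0 in both. No ratio is given for these 16, whose smaller value often stands for a handful of reads.

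**Figure D4:**
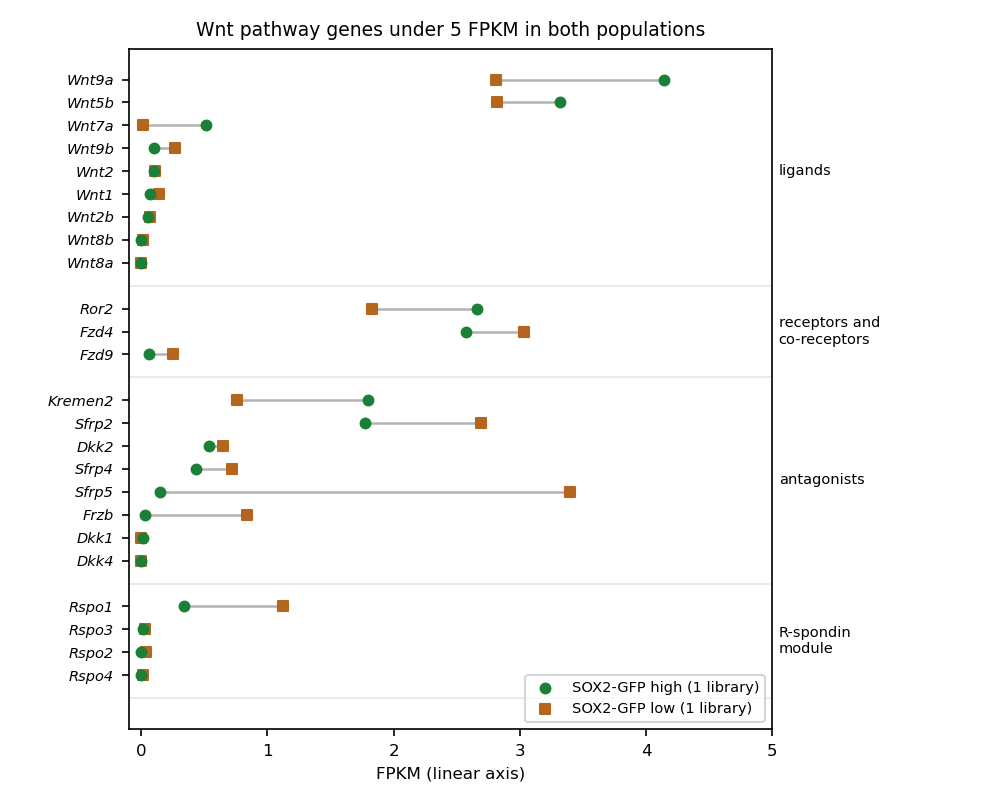
FPKM (linear axis) of the 24 Wnt pathway genes under 5 FPKM in both populations, grouped by role, with a circle for the GFP-high and a square for the GFP-low library. *Sfrp5* shows the widest gap, from 0.15 to 3.40 FPKM, and the R-spondin ligands lie near 0 except *Rspo1*.

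Another 70 genes of the pathway were followed in 5 lists, to set the group beside its partners. Of these, 61 reached 5 FPKM, with 4 enriched in GFP-high cells (6.56%) and another 16 in GFP-low cells (26.2%), against 9.48% and 8.9% of all genes. The median log2 ratio of the 61 was −0.15. None of the 15 cytoplasmic transducers at this level, which include the Dishevelled and Gsk3 genes, was enriched in either population, and their median was 0.11. Of 10 nuclear cofactors, the corepressor *Tle4* was enriched in GFP-high cells (35.4 and 19.5 FPKM) and *Tle2*, *Pygo1* and *Bcl9* in GFP-low cells, of which *Tle2*, another corepressor, had the largest ratio (26.0 and 54.8 FPKM). Of 10 genes of the planar cell polarity branch, *Prickle2* (10.6 and 25.4 FPKM) and *Prickle1* (3.81 and 6.75 FPKM) were enriched in GFP-low cells.

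The last lists hold further extracellular modulators and target genes. Among 13 modulators at 5 FPKM or more, 6 were enriched in GFP-low and 2 in GFP-high cells. *Reck* (1.64 and 10.6 FPKM) and *Gpr124* (1.75 and 10.1 FPKM), which act together in Wnt7 signaling in vessels, had the largest ratios toward GFP-low cells, and *Apcdd1*, an inhibitor expressed in hair follicles, was at 128 and 328 FPKM. *Sulf1*, a sulfatase that alters heparan sulfate, was enriched in GFP-high cells (5.16 and 1.23 FPKM). Among 13 target genes outside the group, 5 were enriched in GFP-low (38.5%) and 1 in GFP-high cells (7.69%), against 8.9% and 9.48% of all genes. In the values as deposited, the center of the list did not lean to the GFP-low side. Its median log2 ratio was 0.10, with 7 of the 13 leaning toward GFP-high cells by any amount and 6 the other way. The TPM scale lowers every log2 ratio by 0.10, as much as that median, so the lean of the list depended on the scaling. *Tnfrsf19* was at 11.7 FPKM in GFP-high and 52.6 FPKM in GFP-low cells, the cell cycle gene *Ccnd1* at 44.9 and 140 FPKM, and *Ascl2* at 5.14 and 11.6 FPKM. *Fosl1*, a partner of Jun in AP-1, was at 103 FPKM in GFP-high and 47.2 FPKM in GFP-low cells. These lists hold genes that other pathways control as well.

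**Figure D5:**
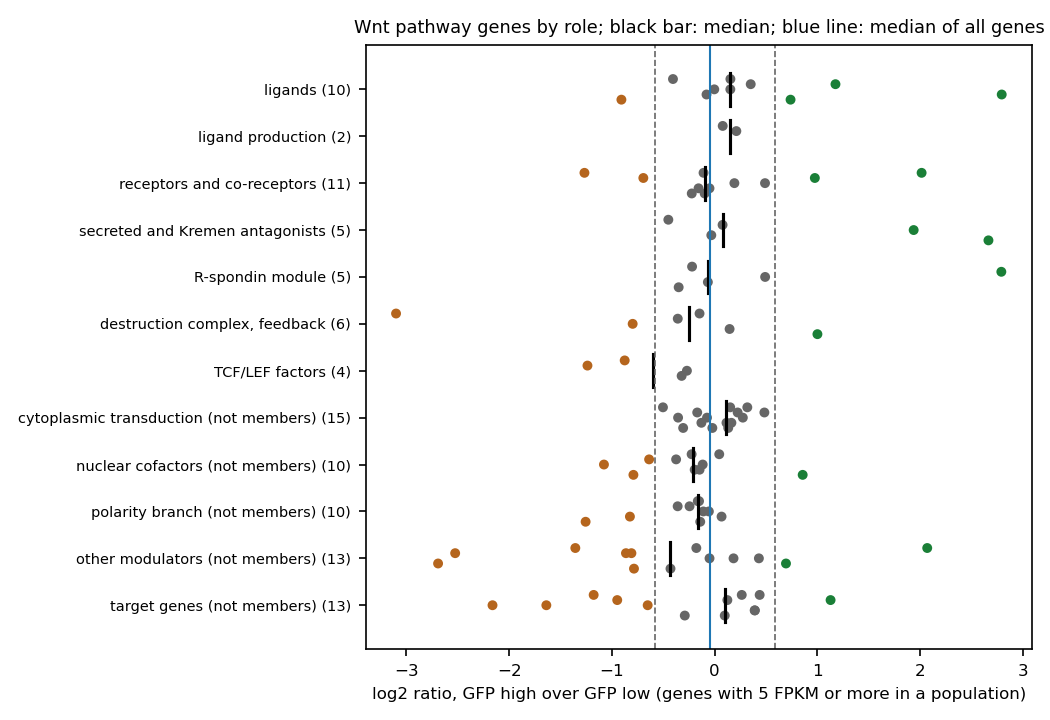
log2 ratio of GFP-high over GFP-low FPKM for Wnt pathway genes with 5 FPKM or more in at least 1 population, 1 point a gene, by role (upper 7 rows, number of genes in parentheses) and for the 5 lists of other pathway genes (lower rows), with dashed lines at 1.5-fold, black bars at the list medians and a blue line at the median of all genes. The TCF/LEF factors lie to the left of 0 in full, while ligands, receptors and feedback genes reach to both sides.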

How the data were processed

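RNA of 2 sorted cell populations of Sox2GFP lingual epithelium was sequenced from 1 library each. Per the labels and the study's methods, the authors trimmed 50-nt reads with Trimmomatic 0.36, mapped them to mm10 with GSNAP and estimated FPKM with Cufflinks 2.2.1, and the deposited table gives 1 FPKM column per population. A deposited column of the authors' signed fold changes was not used. Of 21628 entries, 21 not typed as protein-coding and 17 without a number in a population were left out, which left 21590. Ratios of FPKM were computed with Python 3.11.15, pandas 2.3.3 and numpy 2.4.6. How often a call would repeat in other libraries was not tested. A gene was enriched when it had 5 FPKM or more in the population with the higher value and differed 1.5-fold or more. The study gives the same limits, but its methods ask for 5 FPKM in each sample, which is run here as an alternative. FPKM are not counts, whole reads could not be recovered (no more than 57.6% and 52.0% of low values lay within 0.15 of a whole read), and no count test was run. Positions and gene types came from GENCODE M21 (GRCm38, the mm10 assembly) and promoter windows from RefSeq. Every Wnt gene with 5 FPKM or more is named with its values, weaker ones at 1 FPKM or more or at 0 in both, and of each list of other pathway genes at most 4 enriched genes by ratio. The rule for the 67 genes uses symbols alone, but the pathway, like the added lists, was chosen with earlier results of these data known. A Schwann lineage marker is not reported here and was left out of its list. Alternatives were the FPKM minimum, the ratio, an added constant and the scaling.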

Additional observations from a re-analysis of the deposited data

How the results depend on the processing

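With 1 library per population, no replicate could be left out and the spread between animals is unknown. No paired analysis was possible because each population had 1 library. The 9 genes enriched in GFP-high and the 7 in GFP-low cells were the same genes with 0.1 or 1 added to each FPKM, on the TPM scale and after scaling by the median ratio. With 5 FPKM required in each population, 5 of 37 genes were enriched in GFP-high cells (*Lgr5*, *Wnt16*, *Wnt10b* and *Nkd1* were lost) and 5 in GFP-low cells (*Nkd2* and *Tcf7* were lost). A ratio of 2 left 7 genes enriched in GFP-high cells (*Fzd10* and *Wnt7b* were lost) and 3 in GFP-low cells, *Fzd1*, *Nkd2* and *Tcf7*. No FPKM minimum gave 11 and 16 of 61 genes, the added ones all under 5 FPKM. A minimum of 10 FPKM left 7 and 6 of 39 genes, without *Wnt10b*, *Nkd1* and *Tcf7*. Over all genes, 5 FPKM in each population gave 777 genes of 10016 enriched in GFP-high cells with 633 on the other side, against 1020 and 958 of 10760. In the same order, a ratio of 2 gave 448 and 467, no minimum 2541 and 2483 of 15928, and 10 FPKM 820 and 707 of 9382. The median log2 ratio of the Wnt genes ran from −0.15 on the TPM scale to −0.01 after median scaling. The direction of *Porcn*, *Kremen1*, *Wnt11* and *Sfrp1*, all near a ratio of 1, depended on the scaling.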
